A study of Rattus norvegicus with 7 samples.

Results

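Nat1, Cyp2e1 and Slc28a2 are 3 genes whose products handle drugs and nucleosides, measured here in the dorsal root ganglia (DRG) of rats with bone cancer pain (BCP) and of sham rats. They were chosen by their measured values, namely the signal in sham DRG and its difference between BCP and sham, and by having a probe that a RefSeq accession names. Each has 1 such probe, so that 3 of the 38321 probes on the array that are not controls, and 3 of the 39 probes with a RefSeq gene name, are described. Since the contrast between BCP and sham chose them, their differences are given as a description, with no test, and a count of them among the probes called is set only beside the share over all probes.

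The study used Sprague Dawley rats, labelled female, in which living cells of a rat mammary carcinoma line were injected into a tibia to produce bone cancer pain. Sham rats received heat-inactivated cells of the same line, so both groups carry the injection and the cell material. DRG of the injected side, where the sensory neurons that supply the leg have their cell bodies, were collected on postoperative day 12, frozen and extracted with Trizol. RNA of 4 sham and 3 BCP samples was labelled with Cy3 by random priming, and each sample was hybridized to 1 single-colour array. The BCP arrays carry the replicate numbers 2 to 4, which are kept here, and the ages of the rats are not given in the sources used here.

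Nat1 encodes an arylamine N-acetyltransferase, a conjugating (phase II) enzyme of the cytosol that transfers an acetyl group from acetyl-CoA to aromatic amines and hydrazines. Cyp2e1 encodes a cytochrome P450 of the endoplasmic reticulum, an oxidizing (phase I) enzyme that acts on ethanol, acetone and other small molecules and is most abundant in liver. Slc28a2 encodes the concentrative nucleoside transporter CNT2, which uses the sodium gradient to carry purine nucleosides such as adenosine, and uridine, into cells. Adenosine outside cells acts on receptors of sensory neurons and immune cells, and its uptake is one of the ways in which that signal ends.

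All sham arrays came from 1 scan and all BCP arrays from another, so the effect of the scan and that of the group cannot be told apart. BCP replicate 4 gave an array that stood apart from the others. Its 75th percentile of intensity was 237, against 392 to 442 on the other 6 arrays, and 71.4% of its spots were well above background, against 86.6% to 89.0%. Each of the 3 probes was printed in 10 spots per array, as 50 probes were in all. Within a probe, the same spots tended to be bright on every array but that one. The 10 spots of each such probe were set against the mean of the sham arrays (for a sham array, of the other sham arrays), and the median Pearson's r over the 50 probes was 0.912 to 0.950 for the sham arrays, 0.860 for BCP replicate 2 and 0.833 for BCP replicate 3, but -0.653 for BCP replicate 4. These r describe spots of 1 array, with 10 spots behind each. In Nat1 the r was -0.806 on BCP replicate 4 and 0.811 to 0.950 on the other 6 arrays, and in Slc28a2 it was -0.281 against 0.647 to 0.966. Over all 10 spots, Cyp2e1 had no pattern common to all arrays, with r from -0.0144 to 0.849. These r include its outlier spots, 1 on each of sham replicates 1, 2 and 4, and what part those had in the low r was not tested. The differences of the 3 genes and the counts of probes called are therefore also given without BCP replicate 4. Other values over the BCP arrays include it unless stated, and what made its spots differ was not tested.

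**Figure D1:**
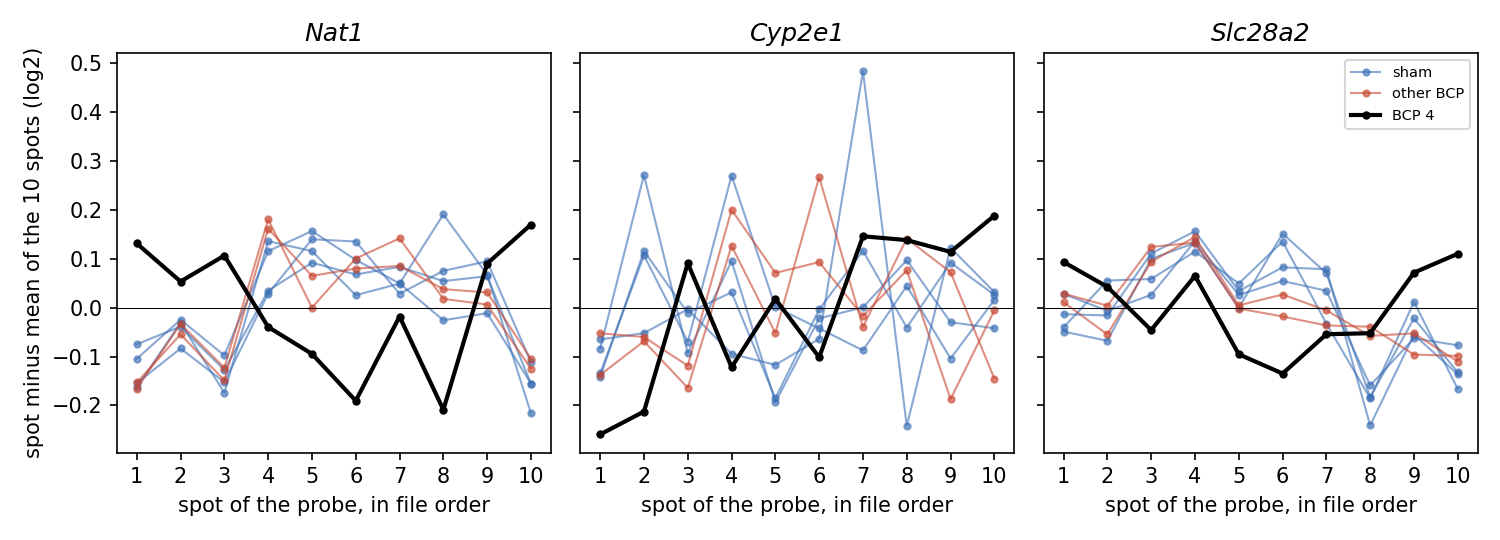
Each of the 10 spots of the Nat1, Cyp2e1 and Slc28a2 probes on the 7 arrays, as its normalized log2 signal minus the mean of the 10 spots (vertical axis), in the order of the file (horizontal axis). The black line of BCP replicate 4 runs against the other 6 arrays in Nat1 (r = -0.806 with the sham pattern) and partly so in Slc28a2 (r = -0.281).

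No expression array measures the promoters, but the RefSeq sequence before the start of a gene was in hand for 2 of the 3. These were Slc28a2, whose groups did not overlap in the quantile normalized means of spots, and Cyp2e1, whose groups did. Other settings changed this for both, as given below. The sequences are shown as the 250 bases before the start that the RefSeq promoter table of rat assembly GRCr8 uses, read 5′ to 3′ on the plus strand, at chr3:129819538-129819787 for Slc28a2 and chr1:205269717-205269966 for Cyp2e1. The capitals mark matches, on either strand, to the TATA box TATAAA, the GC box GGGCGG or the CCAAT box CCAAT.
Slc28a2: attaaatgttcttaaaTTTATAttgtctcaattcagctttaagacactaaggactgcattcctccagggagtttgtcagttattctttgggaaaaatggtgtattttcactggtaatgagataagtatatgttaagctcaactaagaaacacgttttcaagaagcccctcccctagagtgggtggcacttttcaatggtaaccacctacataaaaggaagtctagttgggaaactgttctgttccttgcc
Cyp2e1: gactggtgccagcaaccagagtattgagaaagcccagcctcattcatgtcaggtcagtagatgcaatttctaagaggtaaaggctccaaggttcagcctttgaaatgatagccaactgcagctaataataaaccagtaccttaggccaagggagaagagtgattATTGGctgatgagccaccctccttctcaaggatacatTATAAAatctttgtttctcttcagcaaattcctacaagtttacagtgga
Cyp2e1 held TATAAA on the plus strand, 49 to 44 bases before the start, and a CCAAT box on the opposite strand, 86 to 82 bases before it. Slc28a2 held TATAAA only on the opposite strand, 234 to 229 bases before the start. Neither window held GGGCGG. Of 33469 rat promoter windows of the same length, 12.9% held TATAAA, 30.5% GGGCGG and 34.0% CCAAT on either strand. G and C made up 38.0% of the Slc28a2 window and 42.8% of the Cyp2e1 window, against a median of 51.2% over all windows. A match describes letters, and nothing about a factor follows from one or from its absence.

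Nat1, the conjugating enzyme, was brighter on every BCP array than on any sham array. Its intensities, averaged over the 10 spots before any scaling between arrays, were 171, 140, 128 and 107 on sham replicates 1 to 4, and 254, 268 and 203 on BCP replicates 2 to 4. All 10 spots were well above background on each array, and none was saturated. On the quantile normalized log2 scale the sham arrays read 7.20, 7.02, 6.87 and 6.65, and the BCP arrays 7.83, 8.02 and 8.36. Sham replicate 1 was the highest of the sham arrays, BCP replicate 2 the lowest of the BCP arrays, and a gap of 0.62 lay between them. The group means were 6.94 ± 0.23 (SD, n = 4) in sham and 8.07 ± 0.27 (SD, n = 3) in BCP, a difference of 1.13 with a standard error of 0.18, or 2.19-fold. The highest sham array was 1.47-fold above the lowest, less than the difference between the groups. The array of BCP replicate 4 gave the largest excess over the sham mean, 1.42, and without it the difference was 0.98. Tissue was measured as a whole here, so that a change in the number of cells of a type and a change in RNA per cell cannot be told apart.

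Slc28a2, the nucleoside transporter, was also higher on each normalized BCP array, but its sham arrays were far apart. Its intensities before scaling were 359, 221, 423 and 296 on sham replicates 1 to 4, and 529, 591 and 337 on BCP replicates 2 to 4. All 10 spots were well above background on each array. Before scaling, then, BCP replicate 4 lay below sham replicates 1 and 3, and the separation of the groups rests on the scaling of that dim array. After quantile normalization the sham arrays read 8.27, 7.68, 8.61 and 8.13, and the BCP arrays 8.89, 9.12 and 9.08. Sham replicate 3 was the nearest to the BCP arrays, 0.27 below BCP replicate 2, and sham replicate 2 stood lowest. The means were 8.17 ± 0.38 (SD, n = 4) in sham and 9.03 ± 0.13 (SD, n = 3) in BCP, a difference of 0.86 with a standard error of 0.21, or 1.81-fold. Among the sham rats alone the highest array was 1.90-fold above the lowest, a range as wide as the difference between the groups. Without BCP replicate 4 the difference was 0.83. With 1 array left out in turn, it was lowest without sham replicate 2, at 0.70, and highest without sham replicate 3, at 1.005.

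Cyp2e1, the oxidizing enzyme, gave a dim signal in which BCP and sham overlapped. Its intensities before scaling were 23.4, 21.9, 23.8 and 25.8 on sham replicates 1 to 4, and 30.4, 31.5 and 11.1 on BCP replicates 2 to 4. On the sham arrays and BCP replicates 2 and 3 these were 3.59-fold to 5.82-fold above the dimmest spot that counted as well above background on the same array. On BCP replicate 4 the intensity was only 1.48-fold above it, and 9 of 10 spots were well above background, against 10 of 10 on the others. These intensities and folds cover all 10 spots, of which 1 was an outlier on each of sham replicates 1, 2 and 4. Without these outliers, the normalized sham arrays read 4.29, 4.32, 4.41 and 4.49, and the BCP arrays 4.71, 4.83 and 4.47. BCP replicates 2 and 3 lay above all sham arrays, and BCP replicate 4 lay 0.02 below sham replicate 4. The means were 4.38 ± 0.09 (SD, n = 4) in sham and 4.67 ± 0.18 (SD, n = 3) in BCP, a difference of 0.29 with a standard error of 0.12, or 1.22-fold. Without BCP replicate 4 the difference was 0.38. Before any scaling, also without the outliers, it was -0.079, so that its direction depended on how the dim array was scaled, an alternative chosen after the data were seen. In the same unscaled values the median difference over all probes kept was -0.38, so the difference of Cyp2e1 lay above that median there too.

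**Figure D2:**
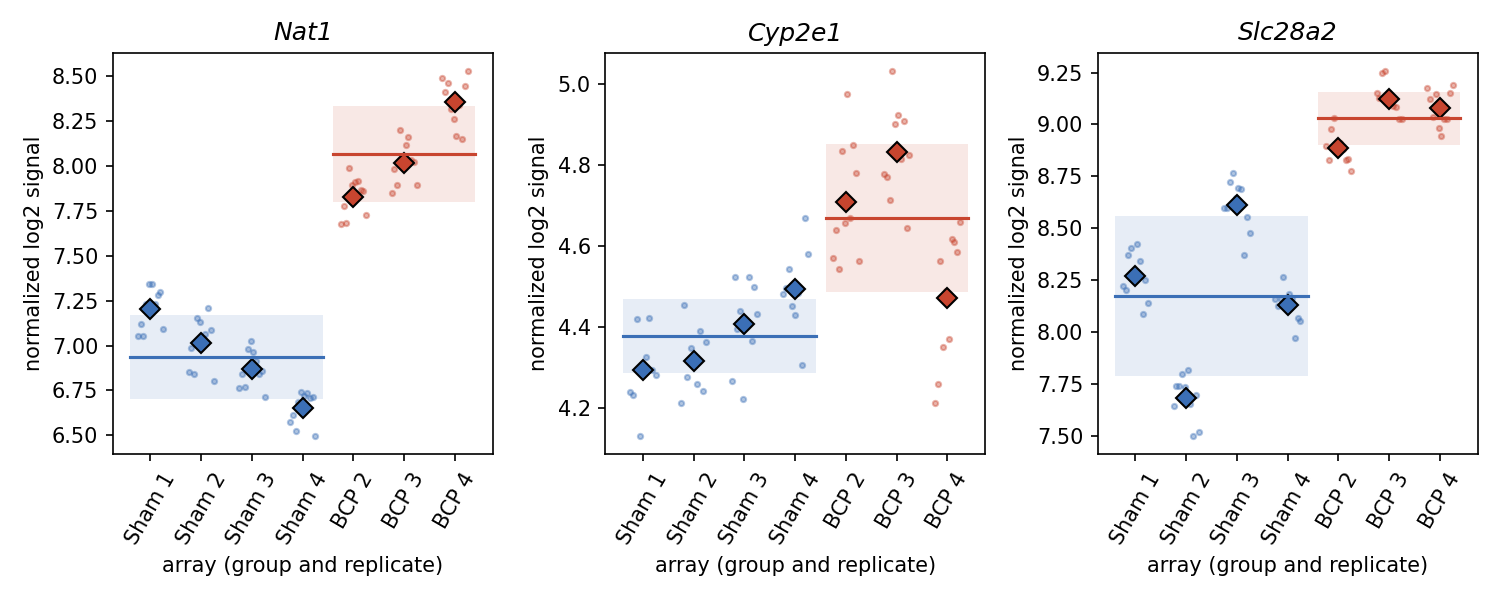
Quantile normalized log2 signal (vertical axis) of Nat1, Cyp2e1 and Slc28a2 on each of the 4 sham (blue) and 3 BCP (red) arrays, with small points for single spots and diamonds for the mean of the spots. Lines and bands give the group mean ± SD, the vertical axes differ between panels and do not start at 0, and only in Cyp2e1 does a BCP array, replicate 4 at 4.47, fall among the sham arrays.

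All 3 probes were among the 34407 kept because 3 or more of the 7 arrays read them well above background. By limma over these probes, 2.27% were called higher in BCP and 0.308% lower, where a call needed a 2-fold difference or more and a p, adjusted by Benjamini-Hochberg, under 0.05. With 1 array left out in turn, the 781 probes called higher became 481 (without sham replicate 2) to 1026 (without BCP replicate 2), and the 106 called lower became 36 (without sham replicate 4) to 318 (without BCP replicate 2). Of the 3 genes, 1, Nat1, was among the probes called higher, and Slc28a2 and Cyp2e1 were not. Nat1 was no longer among them without sham replicate 2 (difference 1.16), sham replicate 3 (1.11), BCP replicate 3 (1.16) or BCP replicate 4 (0.98). Nor was it with normexp background correction (0.88), with no scaling between arrays (0.83) or with the replicate number as a block in the model (1.22). Every BCP array lay above every sham array in 2 of the 3, Nat1 and Slc28a2, as it did in 12.5% of all probes kept. Nothing is read from these counts, since the same contrast chose the genes. Ordered by the BCP minus sham difference among all probes kept, Nat1 stood in place 833, Slc28a2 in place 1252 and Cyp2e1 in place 5794 from the top, where the median difference was -0.07. The probe signal in sham DRG, which also depends on how well each probe binds and so is not compared between genes, lay at the 28.6th percentile of all probes for Cyp2e1, the 59.4th for Nat1 and the 71.5th for Slc28a2.

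The spread between rats comes from the same values that chose the genes, and is given as a description. In sham, the SD of Slc28a2 (0.38) was above that of 98.1% of the 1000 kept probes nearest to it in mean sham signal, whose median SD was 0.08. That of Nat1 (0.23) was above 92.3% of its own 1000 nearest, with a median of 0.09, while that of Cyp2e1 (0.09) was above 24.0% of its nearest, with a median of 0.14. Among the 37 kept probes with a gene name, Slc28a2 had the largest sham SD, Actb (0.36) the next and Nat1 the one after. With all 3 BCP arrays the order was another. The SD of Slc28a2 (0.13) was above that of 23.6% of the same probes, that of Nat1 (0.27) above 58.3% and that of Cyp2e1 (0.18) above 23.3%. The median SDs of these probes in BCP were 0.237, 0.235 and 0.336. That order rests on BCP replicate 4. On BCP replicates 2 and 3 alone, Slc28a2 (8.89 and 9.12) lay further apart than Nat1 (7.83 and 8.02), and Nat1 further than Cyp2e1 (4.71 and 4.83), as in sham. With so few arrays in each group an SD is itself imprecise, and the difference in spread between the groups was not tested.

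The 10 spots of a probe also scattered within each array, in Nat1 and Slc28a2 largely in a pattern that the sham arrays shared. Within sham arrays, the SD over the spots of an array was 0.11 for both Nat1 and Slc28a2 and 0.09 for Cyp2e1, close to the median of 0.10 over the 50 probes with 10 spots. The order of the sham arrays was not shared, as Slc28a2 was highest in replicate 3 and lowest in replicate 2, Nat1 highest in replicate 1 and lowest in replicate 4, and Cyp2e1 highest in replicate 4 and lowest in replicate 1. Spots of 1 array share its RNA and its labelling, so their scatter leaves out what happened before hybridization.

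**Figure D3:**
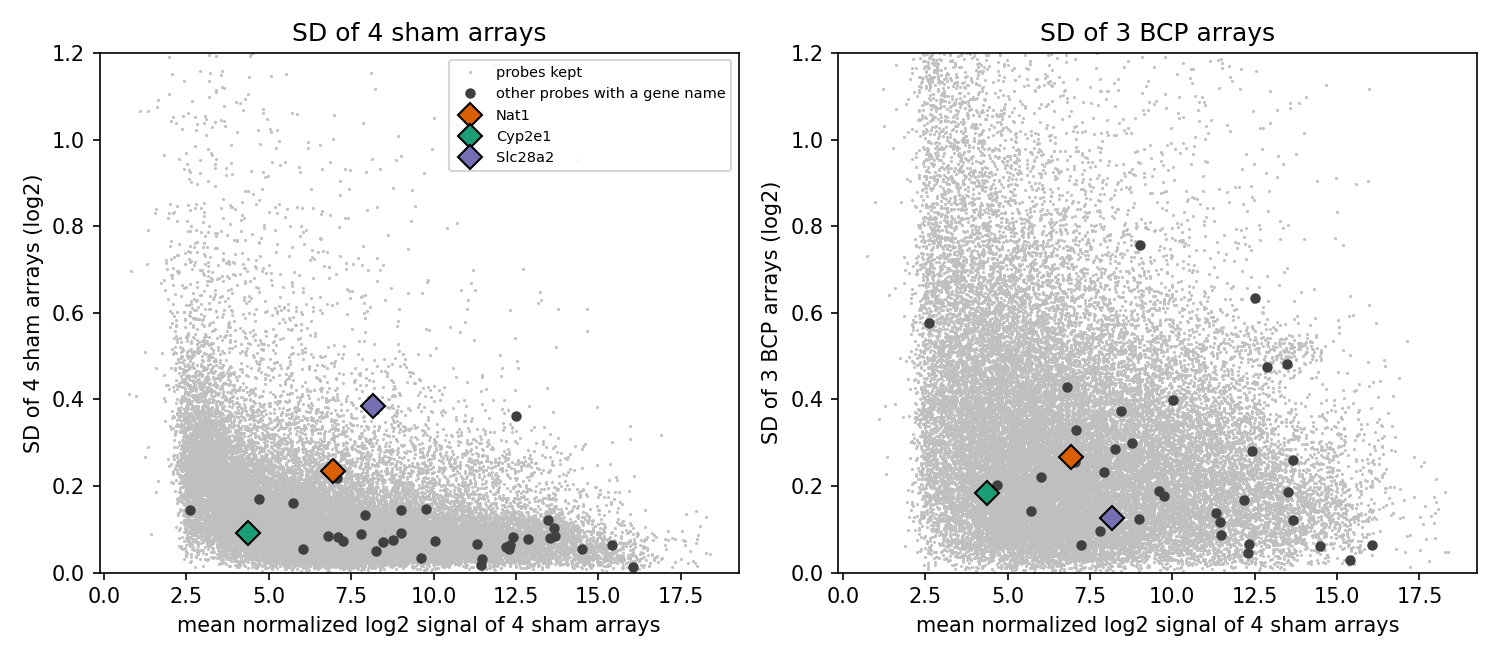
SD of the normalized log2 signal over the 4 sham arrays (left) and the 3 BCP arrays (right) against the mean sham signal, for the 34407 probes kept (grey), the other probes with a gene name (dark) and the 3 genes (diamonds). The vertical axes end at 1.2, beyond which lie 77 probes in sham and 993 in BCP, and Slc28a2 lies high in its range of signal in sham (0.38) but not in BCP (0.13).

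Likeness was taken as the root mean square difference over the 7 arrays between values from which the sham mean had been subtracted, among the probes with a gene name. The genes nearest to Nat1 were Gusb, a lysosomal enzyme that splits glucuronides, at 0.27, Actb, cytoplasmic actin, at 0.31, and Ldha, a subunit of lactate dehydrogenase, at 0.35. Nearest to Slc28a2 were Gusb at 0.26, Ldha at 0.27 and Nat1 at 0.38. Nearest to Cyp2e1 were Magoh, part of the exon junction complex, at 0.11, Hprt1, a purine salvage enzyme, at 0.13, and Rpl13a, a ribosomal protein, at 0.14. The BCP minus sham differences of these neighbours were 0.86 for Gusb, 1.02 for Actb, 0.78 for Ldha, 0.29 for Magoh, 0.23 for Hprt1 and 0.19 for Rpl13a. In Actb the standard error was 0.32 and the groups overlapped, with sham replicate 2 at 13.03 and BCP replicate 2 at 12.88. Another Ldha probe, of lower signal, had a difference of 0.98. Before any scaling that of Magoh was 0.02 and that of Hprt1 -0.013, and with 75th percentile scaling that of Rpl13a was 0.47. Gusb differed from both Nat1 and Slc28a2 in its steady sham arrays, with an SD of 0.07. Of the 34407 probes kept, 234 lay nearer to Nat1 than Gusb did, 79 nearer to Slc28a2 than Gusb, and 245 nearer to Cyp2e1 than Magoh. The measure includes the contrast that chose the genes, so that it describes them and supports nothing.

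**Figure D4:**
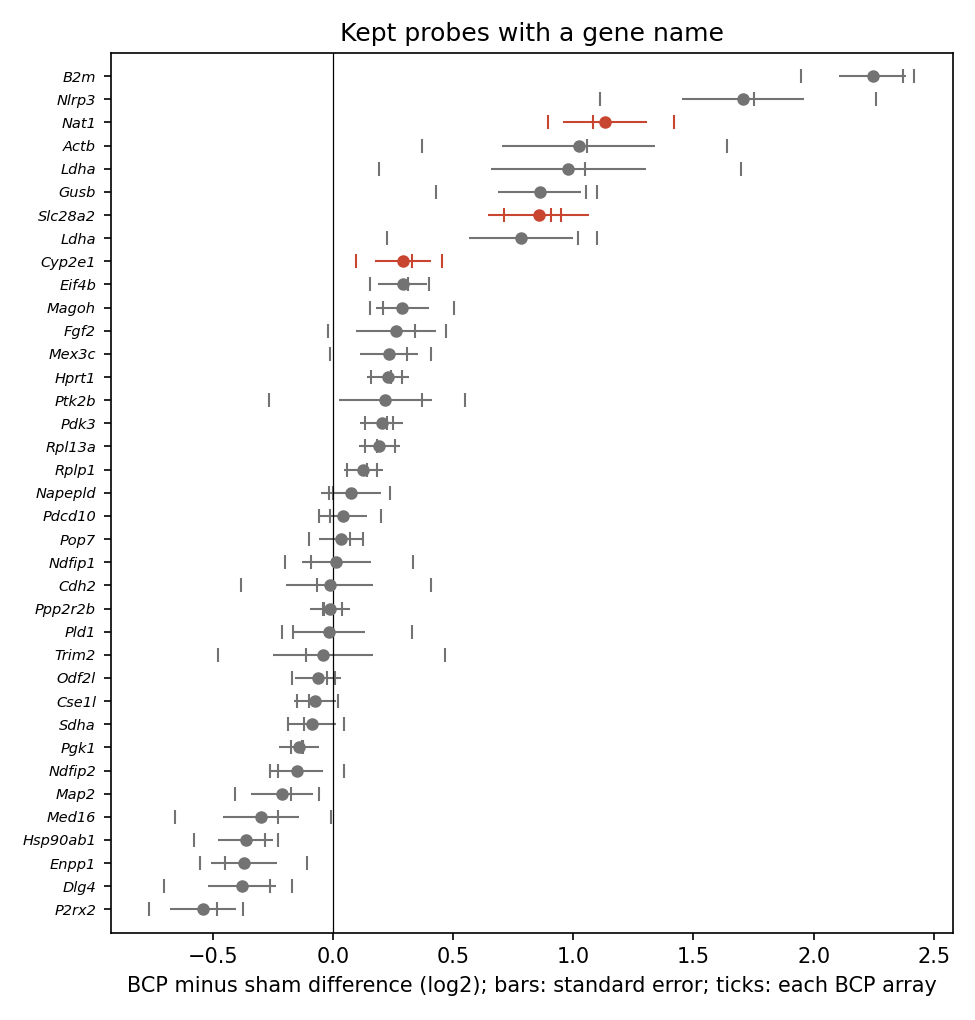
BCP minus sham difference on the log2 scale (horizontal axis) of the 37 kept probes with a gene name, as the difference of means (points), its limma standard error (bars) and each BCP array minus the sham mean (ticks), with the 3 genes in red. Nat1 (1.13) and Slc28a2 (0.86) lie among the upper 8 probes and Cyp2e1 (0.29) near Magoh; Ldha has 2 probes.

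The other genes of drug metabolism and of nucleoside handling could be read in few cases, because 38282 of the 38321 probes have no gene name here. Of the 83 genes in 4 lists, 4 had a named probe: Cyp2e1 of 30 phase I genes, Nat1 of 23 phase II genes, Slc28a2 of 7 nucleoside transporters, and Hprt1 of 23 genes of purine and adenosine handling. Hprt1 was thus the 1 list gene read besides the 3. Its normalized log2 signal was 12.32, 12.25, 12.34 and 12.41 on sham replicates 1 to 4, and 12.49, 12.57 and 12.62 on BCP replicates 2 to 4. Its BCP arrays all exceeded its sham arrays, as in 12.5% of all probes, but the difference of 0.23 (standard error 0.09) did not pass the test (adjusted p = 0.148, limma). It was -0.013 before any scaling between arrays, where the median over all probes kept was -0.38. The relatives Nat2 and Nat3, and the equilibrative transporters that also carry adenosine, are among the genes not read. In the RefSeq gene table of GRCr8 the Nat1 gene overlaps Nat2, with Nat3 next to it, and whether the Nat1 probe also binds RNA of these relatives was not tested.

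None of the 88 marker genes in 8 lists for sensory neurons, satellite glia, Schwann cells, immune cells, vessels and connective tissue, hepatocytes, blood and muscle had a named probe. The DRG label could therefore not be checked against defining markers, and the part of any cell type in the signal of Nat1, Cyp2e1 or Slc28a2 was not tested.

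Among the alternatives run, the differences of Nat1 and Slc28a2 remained above 0, from 0.83 to 1.25 for Nat1 and from 0.58 to 1.005 for Slc28a2, a direction that the choice of genes had fixed. That of Cyp2e1 ran from -0.079 to 0.39. In Nat1 and Slc28a2 the groups were also apart with scaling to the 75th percentile and with normexp background correction. In Cyp2e1, BCP replicate 4 moved with the setting: it lay below all sham arrays with 75th percentile scaling (4.15 against 4.303 to 4.551), and above all of them with normexp (6.34 against 6.26 to 6.29) or with the median of the spots in place of the mean (4.53 against 4.29 to 4.48).

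**Figure D5:**
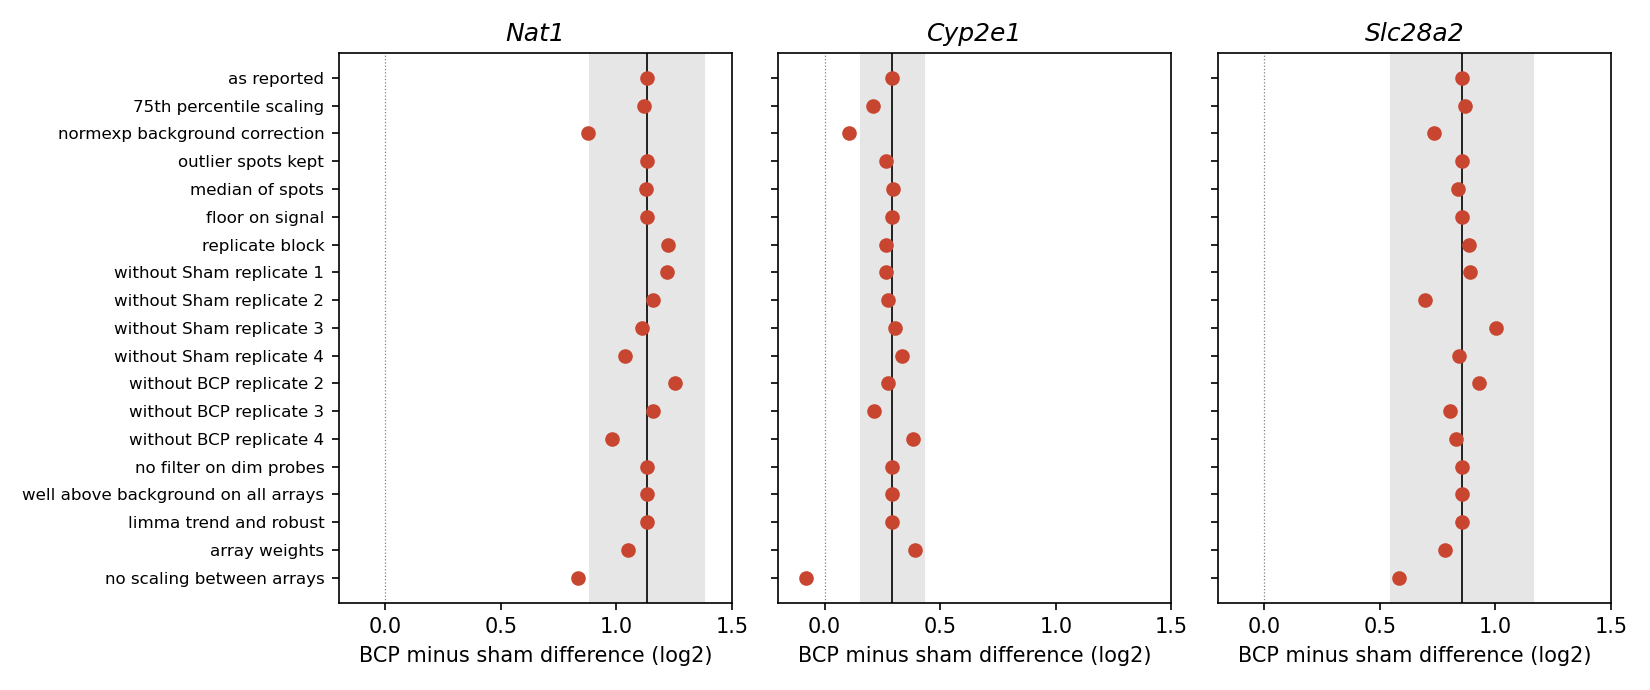
BCP minus sham difference on the log2 scale (horizontal axis) of Nat1, Cyp2e1 and Slc28a2 as reported and under each alternative (rows). The black line is the reported value, the grey band reaches 1 pooled SD between replicates to either side, and the dotted line is 0; Cyp2e1 reaches -0.079 with no scaling between arrays.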

How the data were processed

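The deposited intensities of the 7 arrays are the output of Agilent Feature Extraction, corrected for background within each array. The file headers and the submitters' processing notes give version 11.0.1.1; the methods name another version. The authors also deposited log2 values, which the methods describe as quantile normalized. Their medians run from 6.34 to 6.35 per array, and they hold none of the 3 probes, so they served only for counts and Hprt1.

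The log2 of each intensity was taken and quantile normalized over the 41623 spots per array that are not controls. Outlier spots, 87 to 131 per array, were left out, and spots of a probe were averaged. The correlations over the 10 spots of a probe kept the outlier spots. A probe counted as well above background where over 50% of its spots did. Probes were compared with limma 3.58.1 in R 4.3.3 with group alone in the model. The small number of arrays limits precision.

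Of 44 RefSeq accessions, 39 were named through the RefSeq table of GRCr8, which gave 1 probe for each of the 3 genes. The members and lists were chosen with earlier results of these data known. By rule, the text names the 3 genes, the 3 most like each, and list genes with a named probe; P2rx2 and Enpp1 fall outside it, and the plot of differences draws all kept probes with a gene name. Alternatives covered scaling, background correction, filters, spots, tests, the replicate number and each array left out.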

Additional observations from a re-analysis of the deposited data

How the results depend on the processing

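The percentiles of sham signal moved by less than the SD between sham arrays in each alternative, as did the difference of Slc28a2. With normexp (offset 50) the differences fell to 0.88 in Nat1 and 0.10 in Cyp2e1, and the probes called were 440 higher and 45 lower, against 781 and 106 as reported. With no scaling between arrays, chosen after the data were seen, the differences were 0.83 in Nat1, -0.079 in Cyp2e1 and -0.013 in Hprt1, and the counts 320 and 36. The median difference over all probes kept was then -0.38. The causes were not tested. Hprt1 passed the adjusted p of limma only with normexp (0.26, adjusted p = 0.0393, against up to 0.975 over its alternatives), and P2rx2 only with array weights (-0.46, adjusted p = 0.0484, against up to 0.357). With limma's array weights, also chosen after the data were seen, in which BCP replicate 4 had a weight of 0.0790 and sham replicate 3 one of 3.41, 893 probes were higher and 163 lower. The methods' t-test called 173 probes lower unadjusted and 44 after Benjamini-Hochberg, and 879 and 537 higher.

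With each array left out, the difference ran from 0.98 to 1.25 in Nat1, from 0.21 to 0.38 in Cyp2e1 and from 0.70 to 1.005 in Slc28a2. The counts ran from 481 (without sham replicate 2) to 1026 (without BCP replicate 2) probes higher, and from 36 (without sham replicate 4) to 318 (without BCP replicate 2) lower. With sham replicates 3 and 4 left out in turn, 508 and 498 were higher. The lower count was 47, 38 and 40 without sham replicates 1, 2 and 3, and 51 without BCP replicate 3. Without BCP replicate 4 the counts were 772 and 128.

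A replicate block in the model left 282 calls higher and 6 lower in BCP, and the differences were 1.22 in Nat1, 0.26 in Cyp2e1 and 0.89 in Slc28a2; Nat1 was not among the calls. Deviations of arrays with the same number correlated across probes at 0.124, -0.00360 and -0.0402 for numbers 2, 3 and 4. With so few arrays, BCP replicate 4 among them, these correlations cannot decide whether the number marks a pairing or a batch. The labels do not say what the number means. The authors' table gave no value for the 3 genes, and the mean of all probes of a gene was not run since each list gene had 1 named probe. Signal over background limits the value of Cyp2e1 on BCP replicate 4, 1.48-fold above the dimmest spot that counted as well above background.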

Other observations

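Outside the lists, 2 named genes encode proteins that are gated by extracellular nucleotides or split them, and both genes were chosen after their values were seen. P2rx2, a subunit of ATP-gated ion channels of sensory neurons, had a normalized log2 signal of 4.76, 4.71, 4.84 and 4.45 on sham replicates 1 to 4, and of 4.21, 4.31 and 3.92 on BCP replicates 2 to 4. The probe was well above background on 6 of the 7 arrays. The difference of -0.54 (standard error 0.14) did not pass the test (adjusted p = 0.0623, limma), and over the alternatives it ran from -0.93 with no scaling between arrays to -0.16 with normexp. Enpp1, an ectoenzyme that splits ATP to AMP and pyrophosphate, had a mean of 7.94 ± 0.13 (SD, n = 4) in sham and of 7.56 ± 0.23 (SD, n = 3) in BCP. Its difference of -0.37 did not pass the test either (adjusted p = 0.140, limma), and its highest BCP array, at 7.83, lay above its lowest sham array, at 7.79. Over the alternatives that of Enpp1 ran from -0.67 with no scaling to -0.24 with array weights.

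The median SD over the 10 spots of a probe, across the 50 probes printed in this way, was 0.16 on BCP replicate 4, against 0.10 on both the sham arrays and BCP replicates 2 and 3. It was above the sham value in 43 of the 50 probes. In no sham group of the 3 genes did 1 array lie far enough from the others to pass Dixon's criterion for outliers. With 4 sham arrays that criterion is hard to pass, and sham values helped choose the genes, so nothing is read from this.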
